A study of Mus musculus with 12 samples.

Results

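Among the 25030 array features in the authors' processed value table, 55 probes read lower in beta-catenin knockout footpad skin at E15.5 and E16.5. At E17.5 most of them still read lower but by less, and 12 of the 55 read higher. They were chosen by these measured values. The knockout mean minus the wild-type mean, on the authors' log10 scale, had to be -0.2 or lower at each of the first 2 stages, above -0.1 at E17.5, and -0.176 or lower averaged over the 3 stages. Of the 25030, 205 met the limit at both early stages, and 85 of those also lay above the limit at E17.5 before the limit on the mean was applied. The genotype differences given here are therefore a description of how the members were picked, and carry no test.

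The study profiled embryonic footpad skin of strain C57BL/6 in 6 groups, each either wild type or a knockout of beta-catenin in skin, at E15.5, E16.5 or E17.5, with 2 arrays in each group. Footpad RNA carried the dye Cy3 on every array, and Cy5 carried a common reference that mixed universal mouse reference RNA from cultured cell lines with RNA of 129ES cells. The promoter that drives the deletion, and whether the 2 samples of each group were taken from different embryos, are not given in the sources used here. P-values therefore rest on the spread between samples that may differ only technically.

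Beta-catenin carries the canonical Wnt signal from the cytoplasm to the nucleus, where it acts with TCF and LEF factors on target genes. In embryonic skin this signal acts when placodes form, the epithelial thickenings that give rise to hair follicles and, in the mouse footpad, to sweat glands. The epidermis stratifies and builds its barrier in late gestation. The files list every probe as unmapped and pair none with a gene, so each member is named by the manufacturer's probe code, no genome position or gene role is given, and the level of the targeted transcript, the markers of skin cell types and the pathway lists were not analysed here. In whole skin, fewer cells of a type and less RNA per cell cannot be told apart.

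Each member is an oligonucleotide of 60 bases, and its sequence is what identifies the transcript it reads. The sequences below, 5′ to 3′, belong to 8 members named in the results. Z00026372-1, Z00001033-1, Z00024684-1 and Z00031991-1 were among the lowest in the early knockout, and Z00077077-1 and Z00055667-1 were higher in knockout at E17.5. On the ratios normalized anew, described below, Z00023052-1 rose most with stage and Z00051486-1 was the member that fell. With some other sources of values, also given below, another probe rose most or more members fell.

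Z00026372-1: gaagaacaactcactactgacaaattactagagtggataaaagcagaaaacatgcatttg

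Z00001033-1: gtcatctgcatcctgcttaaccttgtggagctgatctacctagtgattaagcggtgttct

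Z00024684-1: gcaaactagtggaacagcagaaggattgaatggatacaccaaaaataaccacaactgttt

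Z00031991-1: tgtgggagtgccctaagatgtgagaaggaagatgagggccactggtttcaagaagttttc

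Z00077077-1: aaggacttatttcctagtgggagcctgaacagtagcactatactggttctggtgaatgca

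Z00055667-1: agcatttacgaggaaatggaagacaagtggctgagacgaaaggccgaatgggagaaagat

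Z00023052-1: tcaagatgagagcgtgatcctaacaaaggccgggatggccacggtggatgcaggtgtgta

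Z00051486-1: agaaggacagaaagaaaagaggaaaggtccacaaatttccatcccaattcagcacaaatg

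The sequences above were shown only if they held at least 1 reading frame without a stop codon on the printed strand. They also had to lack the polyadenylation signal AATAAA, so neither feature is a finding about them. Of the 55 members, 43 held at least 1 such reading frame (78.2%, against 83.4% of all probes). The members' GC content had a median of 45% and ran from 23.3% to 55%, against a median of 43.3% over all 42006 probes. The polyadenylation signal AATAAA, searched on the printed strand, was in 4 members (7.27%) and in 6.93% of all probes. None of these features set the members apart by more than a few percentage points. No member shared 20 bases with another member, so none of the 55 measurements repeats another by sequence.

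On the authors' scale the early differences were wide. The median member was 2.14-fold lower in knockout at E15.5, with a highest fold of 5.80, and 1.92-fold lower at E16.5, with a highest fold of 3.69. The 5.80-fold was that of Z00026372-1, which was not above background on either E15.5 knockout array, so its size is no measured one. In 37 of the 55 the difference was larger at E15.5 than at E16.5. At E17.5 the log10 difference had a median of -0.063, and 12 members had turned to a higher level in knockout. The limits pass through a continuum. At E17.5 the member nearest the limit was Z00051018-1 at -0.0996, and the nearest probe left out was Z00030158-1 at -0.102. At E15.5 the corresponding pair was Z00076463-1 at -0.220 and Z00056405-1 at -0.196. At E16.5 it was Z00017619-1 at -0.203 and Z00070199-1 at -0.197. For the mean of the stages it was Z00046679-1 at -0.178 and Z00036802-1 at -0.175.

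Signal strength divided the members. The scanner software marked Cy3 as well above background on all 12 arrays for 32 of the 55 members (58.2%), against 55.8% of all probes. For 22 members neither E15.5 knockout array was above background, and for 7 members neither E16.5 knockout array was. The number of members above background was 33 and 32 on the E15.5 knockout arrays, against 46 and 38 in wild type. It was 48 and 45 against 50 and 52 at E16.5, and 47 and 48 against 46 and 46 at E17.5. Over all probe spots the share above background was 59.0% and 59.2% in knockout against 65.3% and 59.4% in wild type at E15.5. It was 72.3% and 70.8% against 69.1% and 69.6% at E16.5, and 66.3% and 67.9% against 63.6% and 63.0% at E17.5. At E16.5 the knockout arrays thus held fewer readable members but more readable spots overall than wild type, and at E17.5 slightly more of both. No member had a saturated spot.

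The spot intensities were normalized anew to log2 ratios of footpad over reference, the scale of the values that follow. Probes above background on fewer than 2 arrays were left out. That kept 50 members among 30367 probes. The 5 members left out were Z00061746-1, Z00059948-1 and Z00046679-1, above background on 1 array each, and Z00035241-1 and Z00071404-1, above background on none. Because a member could pass through the group in which it was high, the 50 are not a fair sample of the 55, and the counts of calls without this filter are given too.

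The members' median ratio rose over the 3 days in both genotypes, and the knockout arrays started lower. At E15.5 it was 0.11 and 0.07 on the knockout arrays and 0.78 and 0.59 in wild type. At E16.5 it was 0.62 and 0.54 in knockout and 1.22 and 1.17 in wild type. At E17.5 it was 1.85 and 1.86 in knockout and 1.94 and 1.91 in wild type. The 2 genotypes lay apart on the first 2 days and close together on the last, as the choice of members fixed. The E16.5 knockout arrays lay at about the level of the E15.5 wild-type arrays in this median, while member by member the E16.5 knockout mean was below the E15.5 wild-type mean in 34 of 50 (all probes 52.2%), with a median difference of -0.25. The E17.5 knockout mean exceeded the E16.5 wild-type mean in 42 of 50 (all probes 52.7%), with a median difference of 0.46, and both knockout arrays lay above both wild-type arrays in 36 (all probes 38.3%).

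**Figure D1:**
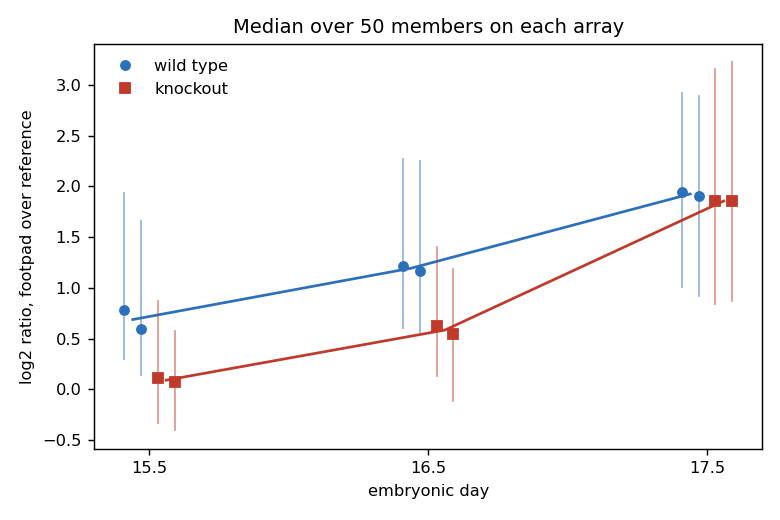
Median log2 ratio of footpad over reference of 50 members (vertical axis) against embryonic day, 1 point per array, with thin bars from the lower to the upper quartile of the members and lines through the mean of the 2 arrays. Wild type rises from 0.78 and 0.59 to 1.94 and 1.91, and knockout from 0.11 and 0.07 to 1.85 and 1.86.

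Member by member, the re-normalized knockout minus wild-type difference had medians of -0.87 and -0.73 on the first 2 days and -0.13 on the last, where the medians over all probes tested were 0.01, 0.00 and 0.01. Both knockout arrays lay below both wild-type arrays for 45 of 50 members at E15.5, where 21% of all probes did. They did so for 49 of 50 at E16.5 (all probes 25.7%) and for 24 of 50 at E17.5 (all probes 28.1%). Both knockout arrays lay above both wild-type arrays at E17.5 for 7 of 50 members, where 30.8% of all probes did. Nothing is read from these counts, since the same contrasts chose the members.

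The 2 classes of brightness differed in how far the new normalization changed their values. The 32 members above background on every array had medians of -1.00, -0.87 and -0.18 over the 3 stages, and every one of them was lower in knockout at E15.5 and at E16.5. The 18 dimmer members that passed the filter had medians of -0.26, -0.35 and 0.01, with values below background taken as measured, whereas the authors' table gave the same 18 members, turned to log2, medians of -1.43, -0.93 and -0.09. Only 22 of the 55 members met the limits of the rule when these were applied to the re-normalized ratios, and 63 probes in all did. For dim members the size of the early difference thus differed between the 2 sources of values, and the bounds were small. Among the probes not above background in knockout, Z00026372-1 was at least 1.83-fold lower at E15.5, where the authors' table had 5.80-fold. The other bounds ran from 1.01-fold to 1.33-fold, and Z00066973-1 and Z00000770-1 gave none at E15.5. Some of these probes had only 1 wild-type array above background and the other taken as read, so their values are no strict bounds.

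**Figure D2:**
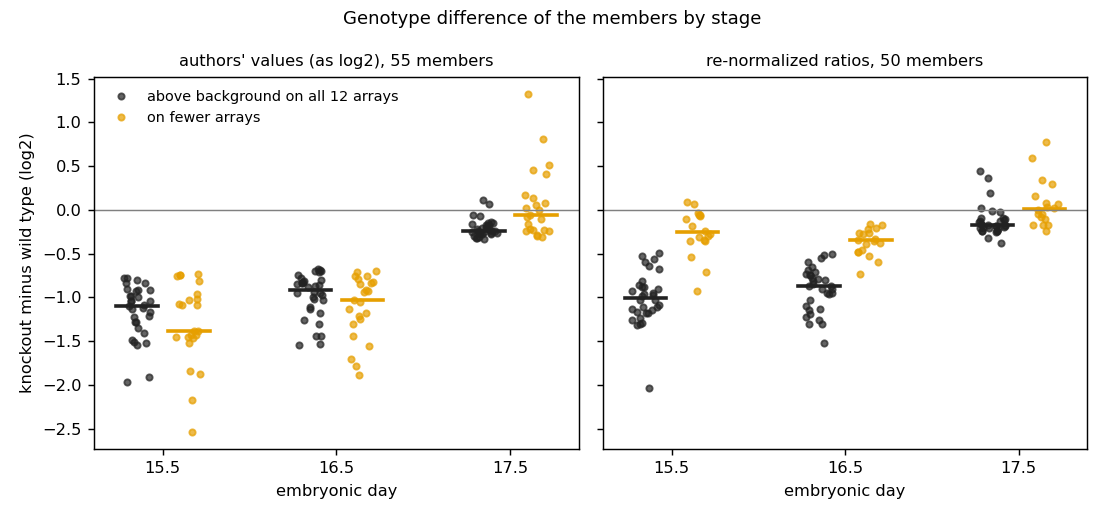
Knockout minus wild-type difference on a log2 scale against embryonic day, 1 point per member, on the left from the authors' values (55 members) and on the right from the re-normalized ratios (50 members), with bars at the medians. Black members, above background on all 12 arrays, keep medians of -1.00 and -0.87 at the first 2 stages on the right, while orange members, above background on fewer, move to -0.26 and -0.35.

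Z00039971-1 had nearly equal early differences and was above background on all 12 arrays. Its log2 ratio was 0.66 and 0.13 in knockout against 2.03 and 1.36 in wild type at E15.5. It was 1.19 and 0.80 against 2.22 and 2.37 at E16.5, and 3.59 and 3.60 against 3.58 and 3.87 at E17.5. The groups were apart on the first 2 days and overlapped on the last, with re-normalized differences of -1.30, -1.31 and -0.13, which are a 2.46-fold and a 2.47-fold lower level early and a 1.10-fold lower one late. In wild type the probe itself rose by 1.43 from E16.5 to E17.5, so the knockout closed the gap on a rising level.

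Z00001033-1 rose at both steps in each genotype. It read -0.62 and -0.74 in knockout against 0.62 and 0.24 in wild type at E15.5. At E16.5 the values were 0.90 and 0.34 against 1.74 and 1.69, and at E17.5 they were 2.29 and 2.37 against 2.52 and 2.32. The knockout E16.5 arrays overlapped the wild-type E15.5 arrays, and at E17.5 the 2 genotypes overlapped. Its differences were -1.11, -1.10 and -0.09.

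Z00024684-1 followed another course, in which wild type had stopped rising. It read -0.27 and -0.26 in knockout against 0.59 and 0.68 in wild type at E15.5, and 0.45 and 0.63 against 1.18 and 1.40 at E16.5. At E17.5 it read 1.04 and 0.95 against 1.09 and 1.25. The knockout stayed just below wild type on the last day without overlap, while the wild-type mean changed by -0.12 from E16.5 to E17.5 and the knockout mean by 0.45. On the authors' scale it was 3.90-fold lower at E15.5, and on the re-normalized one 1.86-fold.

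Of the other members with the lowest early values in the authors' table, Z00066973-1, Z00023563-1, Z00031991-1 and Z00000770-1 were not above background on either E15.5 knockout array. The E15.5 knockout values of these 4 probes are therefore no measured levels. For Z00031991-1 and Z00023563-1 only 1 of the E15.5 wild-type arrays was above background. With the other taken as read, the knockout was lower by 1.10-fold and 1.11-fold, which are no strict bounds. At E16.5 Z00031991-1 read 0.40 and 0.45 against 0.77 and 0.79 at E16.5, and 1.58 and 1.74 against 1.66 and 1.77 at E17.5. The genotypes lay apart at E16.5 and overlapped at E17.5. At E16.5 the differences were -0.59 for Z00066973-1, -0.48 for Z00000770-1 and -0.34 for Z00023563-1, and at E17.5 they were -0.17, -0.24 and 0.16.

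A pair of members singled out after their values were seen held the widest re-normalized gaps. Z00038295-1 read 1.26 and 0.88 in knockout against 3.36 and 2.86 in wild type at E15.5, the lowest difference of the 50 at that stage (-2.03). It read 2.27 and 1.98 against 3.45 and 3.40 at E16.5, and 4.05 and 4.12 against 4.25 and 4.28 at E17.5. Its genotypes did not overlap on any day, yet the gap narrowed to -0.18. Z00055038-1 had the lowest difference at E16.5 (-1.53), with 2.96 and 2.46 in knockout against 4.29 and 4.17 in wild type.

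None of the 4 members highest over wild type at E17.5 in the authors' table was above background on both E15.5 knockout arrays. Z00026372-1 read 0.48 and 0.45 in knockout, not well above background, against 1.60 and 1.19 in wild type at E15.5. It read 0.67 and 0.80 against 1.56 and 1.37 at E16.5, and 2.34 and 2.63 against 1.99 and 2.38 at E17.5. The last pair overlapped. Its level at E17.5 was 2.50-fold higher in knockout in the authors' table and 1.23-fold higher on the re-normalized ratios. In the authors' table a wild-type array stood at 2.03 on the log10 scale against 2.74 for the other. Why the sources differed was not tested.

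Z00077077-1 was further apart on the last day. It read 0.67 and 0.53 in knockout against 1.51 and 1.10 in wild type at E15.5, and 1.03 and 0.86 against 1.56 and 1.40 at E16.5. At E17.5 it read 3.46 and 4.06 against 2.94 and 3.02. The knockout was below wild type without overlap on the first 2 days and above it without overlap at E17.5, by 1.72-fold.

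Z00055667-1 turned in the same way. Its values were 0.37 and 0.25 in knockout, not well above background, against 0.88 and 0.81 in wild type at E15.5, and 0.41 and 0.43 against 0.66 and 0.70 at E16.5. At E17.5 they were 1.64 and 1.81 against 1.08 and 1.18, a 1.51-fold higher level in knockout. Z00045567-1 had a smaller turn, with 0.76 and 0.85 in knockout against 0.28 and 0.64 in wild type at E17.5. Among the 32 brighter members, 4 had an estimate above 0 at E17.5, of which Z00048267-1 (0.45) and Z00024068-1 (0.36) were the highest. In the authors' table Z00048267-1 was instead lower in knockout at E17.5, at -0.075 on the log10 scale, and Z00024068-1 was at 0.022.

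**Figure D3:**
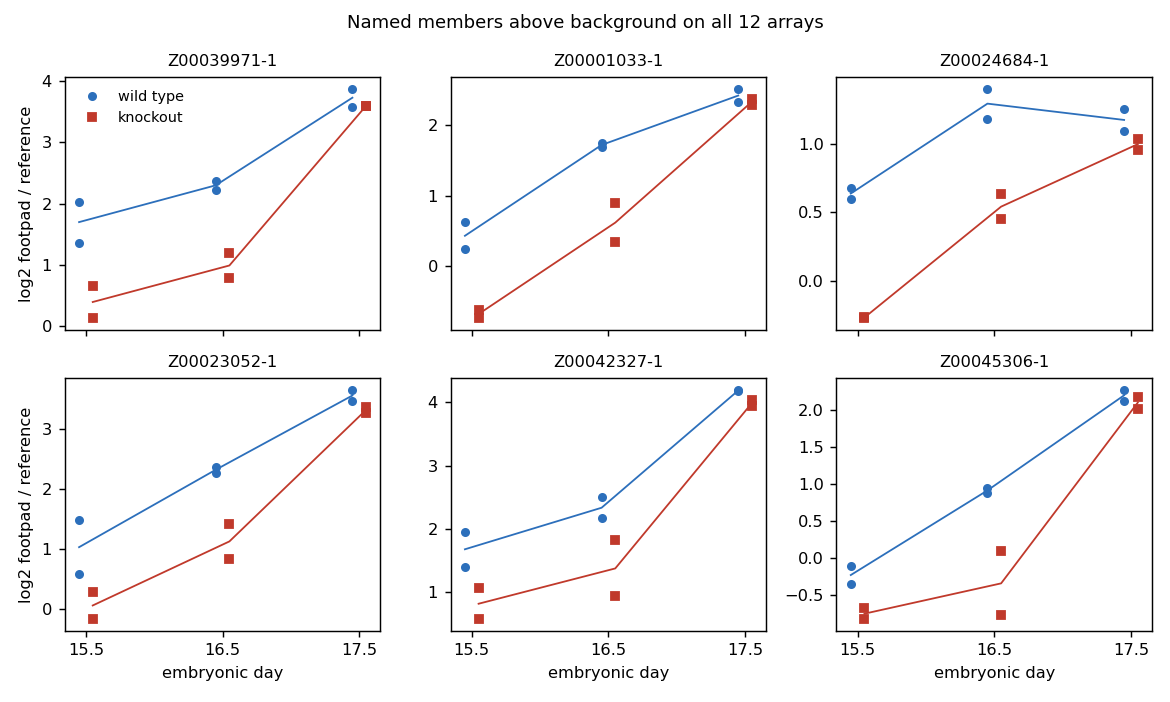
Log2 ratio of footpad over reference against embryonic day for the 6 named members above background on all 12 arrays, 1 point per array, lines through group means, with a separate vertical scale in each panel. Knockout lies below wild type at E15.5 and E16.5 in each panel, and at E17.5 the genotypes lie close together, as for Z00039971-1 with 3.59 and 3.60 against 3.58 and 3.87.

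The course over time was followed in the mean of the 2 genotypes, a contrast the rule did not name but one that comes from the same 12 arrays. It is not separate from the choice of members, since the knockout's rise relative to wild type that the rule asked for enters this mean, and the calls that follow are not independent support for a rise. Wild type alone, whose arrays also chose the members, had a median change of 0.42 over the first step and 0.56 over the second, and knockout 0.38 and 1.27. From E15.5 to E17.5 the mean of the genotypes rose for 45 of 50 members and fell for 1 by limma's moderated test at an adjusted p under 0.05, where 29.9% of all probes rose and 31.8% fell. The members' median change was 1.33, and 29 of 50 changed by at least 1. Over all probes tested the median was -0.016 and the upper quartile 0.28. Without the filter 44 of 55 rose. All 32 members above background on every array rose, against 13 of the 18 dimmer ones. The shares of all probes without the filter and by brightness were not counted, so nothing is read from these counts about the members.

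The steps differed in size on this scale. Between E16.5 and E17.5, 41 of 50 members rose and 0 fell by limma (all probes 19.8% and 11.9%), with a median change of 0.91 against 0.02 over all probes. The single estimate below 0 was -0.00014. Without the filter 40 of 55 rose and 0 fell. Between E15.5 and E16.5, 29 rose and 7 fell (all probes 29.2% and 33.3%), with a median of 0.40, and without the filter the counts over 55 members were the same. With Agilent's processed signals the medians were 0.92 over the first step and 0.86 over the second, so the order of these medians turned. Taken relative to the median of all probes under those signals, they were 0.84 and 0.88. There 36 members were called higher at each step. The shares of all probes called without the filter and with Agilent's signals were not counted, so nothing is read from those counts. By course, 25 of 50 members rose at both steps (all probes 5.18%), 10 rose at the second only (4.8%), 4 at the first only (18.1%), and 6 fell and then rose (9.85%). The remaining 5 were called at neither step, which held for 4, or fell at the first step only, which was Z00051486-1.

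Z00023052-1 had the highest rise on these ratios, though Z00042327-1 exceeded it under median centring (3.03 against 2.89) and with Cy3 alone (3.22 against 2.94), and Z00031991-1 with Agilent's signals (4.83 against 3.13) and in the authors' table (3.90 against 3.13). It read 0.29 and -0.17 in knockout and 1.47 and 0.59 in wild type at E15.5, 1.42 and 0.83 against 2.37 and 2.27 at E16.5, and 3.26 and 3.37 against 3.65 and 3.46 at E17.5. All 4 arrays of each day lay above every array of the same genotype on the day before, and the genotype mean rose 7.41-fold over the 2 days (log2 change 2.89 ± 0.19 SE, limma adjusted p = 3.09e-07).

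Z00042327-1 read 1.07 and 0.58 in knockout and 1.95 and 1.41 in wild type at E15.5, and 1.82 and 0.94 against 2.17 and 2.51 at E16.5. At E17.5 it read 3.94 and 4.04 against 4.20 and 4.18, which put every array of the last day above every earlier one. Its rise was 7.15-fold (2.84 ± 0.19 SE, limma adjusted p = 3.77e-07), of which 2.23 came in the second step.

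Z00045306-1 read -0.83 and -0.68 in knockout against -0.11 and -0.35 in wild type at E15.5. At E16.5 it read 0.09 and -0.78 against 0.87 and 0.95, and at E17.5 it read 2.02 and 2.18 against 2.27 and 2.12. The 2 knockout arrays of E16.5 were far apart for this probe, and 1 of them lay within the E15.5 knockout range. The rise over both steps was 6.24-fold (2.64 ± 0.15 SE, limma adjusted p = 1.32e-07). Z00039971-1 rose 6.11-fold (2.61 ± 0.16 SE, limma adjusted p = 1.98e-07) and Z00001033-1 5.66-fold (2.50 ± 0.12 SE, limma adjusted p = 4.25e-08).

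At the other end, Z00051486-1 fell. It read 0.12 and 0.14 in knockout, not well above background, against 0.34 and 0.60 in wild type at E15.5, and -0.07 and -0.12 against 0.09 and 0.14 at E16.5. At E17.5 it read 0.12 and 0.01 against -0.0049 and 0.06. The wild-type values came down with stage, and the genotype mean changed by -0.25 ± 0.07 SE (limma adjusted p = 0.00757). It was above background on 8 arrays, on neither E15.5 knockout array and neither E17.5 wild-type array. Z00032202-1 (-0.05), Z00076463-1 (0.03) and Z00000770-1 (0.05) had changes that did not pass the test (limma adjusted p = 0.508, 0.745 and 0.698), and they were above background on 2, 4 and 9 arrays. These calls depended on the source of the values. With Agilent's signals Z00000770-1 changed by 1.61 (limma adjusted p = 0.00128) and Z00076463-1 by 1.09 (limma adjusted p = 0.0158), and in the authors' table Z00032202-1 changed by -0.71 (limma adjusted p = 0.029).

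The 6 members that fell and then rose were all above background on every array, and in the mean of the genotypes all 6 ended above their E15.5 level. The knockout mean did so in 6 of 6, while the wild-type mean ended below its E15.5 level in 3 of 6. Z00055038-1 read 3.40 and 3.00 in knockout against 4.69 and 4.33 in wild type at E15.5, and at E17.5 it read 4.87 and 5.04 against 5.05 and 5.11. With the E16.5 values given above, both genotypes dipped at E16.5 and then rose past their start, with a genotype mean change of -0.39 (limma adjusted p = 0.0202) and then 1.54 (limma adjusted p = 1.39e-05). The first-step falls of the 7 members that fell ran from -0.67 to -0.29.

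The other 5 of these members were Z00024068-1, Z00051373-1, Z00016085-1, Z00048267-1 and Z00070047-1. Z00051373-1 had the widest turn among them, with a change of -0.67 and then 1.63, and Z00070047-1 had the lowest change over both steps, at 0.34 (limma adjusted p = 0.00127). In that probe the wild-type mean went from 4.68 to 4.61 and the knockout mean from 3.73 to 4.50.

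Replicates of the members differed by more at the early stages than at the last. The SD over the 50 members of the difference between the 2 arrays of a group was 0.27 in knockout and 0.25 in wild type at E15.5, and 0.26 and 0.22 at E16.5. At E17.5 it was 0.16 and 0.17. Over all probes the SD was 0.30 in knockout and 0.21 in wild type at E15.5, 0.15 and 0.21 at E16.5, and 0.13 and 0.15 at E17.5. All probes thus also differed less at the last stage than at E15.5. Only in the E15.5 knockout group was the members' SD below that of all probes. In every other group it was higher, by the most in the E16.5 knockout group and barely in the E16.5 wild-type group. These differences were not tested.

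Within each genotype the courses are a description, since the arrays that chose the members enter them. From E16.5 to E17.5 the change was above 0 in 43 of 50 members in wild type, where 54.6% of all probes were, and in 50 of 50 in knockout, where 54% of all probes were. The knockout rose more than wild type over that step in all 50, which the limits of the rule favour. By the medians given above, the genotypes ran nearly in parallel over the first step and differed over the second.

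**Figure D4:**
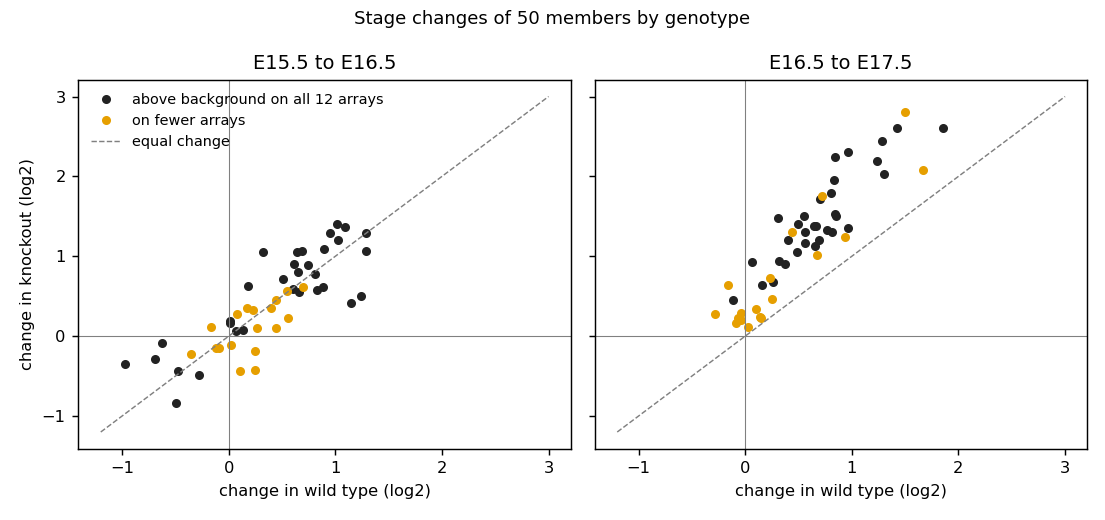
Change of each of 50 members in knockout (vertical axis, log2) against its change in wild type (horizontal axis, log2), from E15.5 to E16.5 on the left and from E16.5 to E17.5 on the right, with a dashed line of equal change. Members scatter about the line on the left (medians 0.38 in knockout and 0.42 in wild type) and lie above it on the right (medians 1.27 and 0.56).

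Some measurements moved with stage or genotype by design. Every slide held the arrays of a single stage, so the effects of stage and of slide cannot be told apart, and on each slide the knockout samples took the first 2 array positions and wild type the last 2, so genotype and position cannot be told apart either. The Cy5 channel, with the reference RNA common to all arrays, gave the members knockout minus wild-type medians of 0.01, 0.01 and -0.01 at the 3 stages. Between E15.5 and E17.5 its median change was 0.05, where that of the footpad ratio was 1.33. Single members did move in that channel, with 18 of 50 called higher and 7 lower by limma (all probes 6.61% and 3.97%). The footpad channel alone, without the reference, called 46 of 50 higher over the same span (all probes 30.6%).

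The members also stood high against the reference. Averaged over the 12 arrays, the median member's log2 ratio of footpad over reference was 0.86, where that of all probes tested was 0.06. In wild type 42 of 50 were above the reference at E15.5 and 46 at E17.5, and in knockout 30 were at E15.5. The share of all probes above the reference was not counted. Their medians in these 3 groups were 0.05, 0.04 and 0.04, so most of them lay above it too. The members' median in E15.5 knockout, 0.08, was close to that of all probes.

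Repeat measurements came from 3 probes that were not among the authors' table, so the rule did not use them, and that share a run of bases with a member on the same strand. They read the same RNA extracts on the same arrays, so they repeat the probe and not the sample. For 1 of the pairs the sequences are shown with the 22 shared bases in capitals, which close the partner probe and open the member.

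Z00045240-1: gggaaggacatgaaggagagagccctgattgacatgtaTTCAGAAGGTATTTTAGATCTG

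Z00060225-1: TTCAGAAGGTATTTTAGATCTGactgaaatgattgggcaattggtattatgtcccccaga

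The member Z00060225-1 read -0.34 and -0.57 in knockout against 1.10 and 0.58 in wild type at E15.5. It read 0.89 and 0.78 against 1.80 and 1.77 at E16.5, and 2.07 and 2.21 against 2.31 and 2.38 at E17.5. Its genotype differences were -1.29, -0.95 and -0.21, with no overlap on any day. The partner Z00045240-1 had differences of -1.38, -0.95 and -0.12, and on the last day its knockout arrays, 1.99 and 2.17, overlapped wild type at 2.17 and 2.24.

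The second pair shares 43 bases. Z00028025-1 had differences of -1.03, -1.03 and -0.17, and its partner Z00063258-1 had smaller ones of -0.71, -0.65 and -0.12. In wild type the member hardly moved, with means of 2.04, 2.11 and 2.17 over the 3 stages, while the knockout means were 1.01, 1.08 and 2.00. The last pair shares 29 bases. Z00051018-1 had differences of -0.98, -0.81 and -0.32, and its partner Z00064598-1 of -1.13, -0.77 and -0.28. All 3 partners were above background on all 12 arrays, and like their members they had their difference nearest 0 at E17.5.

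**Figure D5:**
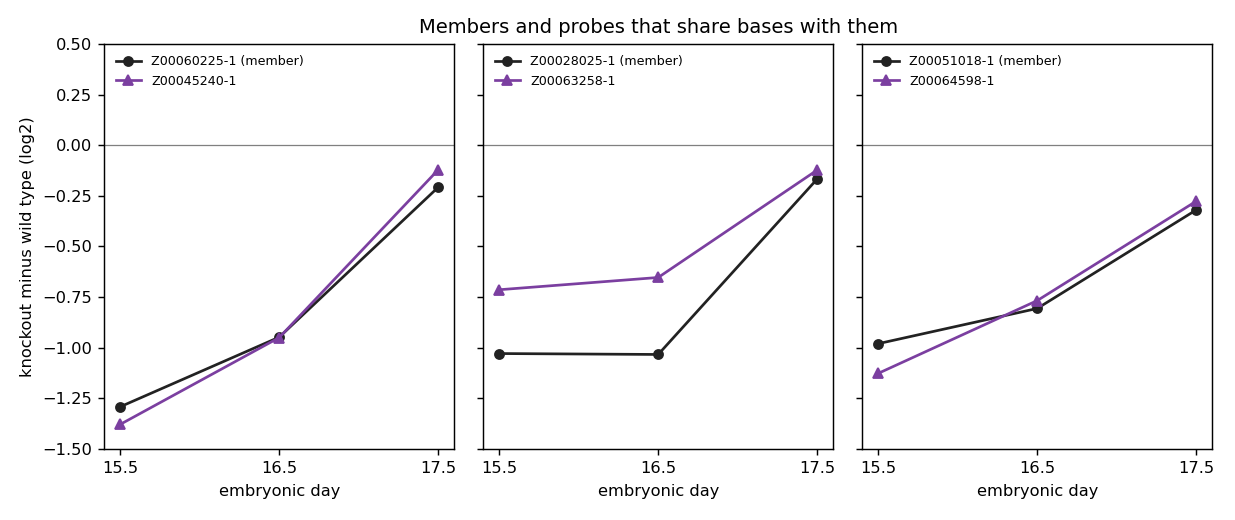
Knockout minus wild-type difference (log2) against embryonic day for 3 members (circles) and the probes that share bases with them (triangles), 1 pair in each panel. The lines run close in the left and right panels, and in the middle panel the partner's early differences (-0.71 and -0.65) are smaller than the member's (-1.03 and -1.03).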

How the data were processed

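Per the file headers, each array was read with Agilent Feature Extraction 9.5.1.1, and the deposited files hold intensity values per spot for Cy3 and Cy5. The authors' series value table is on a log10 scale, with normalization, centring and the choice of its features not stated. Its direction, footpad over reference, came from setting its columns against the array files. Intensities were corrected here with normexp (offset 50) in limma 3.58.1 (R 4.3.3), normalized by loess within arrays with control spots at weight 0, and turned to log2 ratios, averaged per probe. Probes marked above background in Cy3 on fewer than 2 of the 12 arrays were left out (11638 of 42006), with 1 more for outlier spots. Where a member was below background on every array of a group, its ratio there is printed as read and is no measured level. A fold of the newly normalized values is then given only as a bound. It was taken against the dimmest signal that passed as above background after Aquantile scaling of the single channels, which leaves it open to dye bias. The wild-type arrays entered it as read, also where 1 of them was not above background.

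The fit used 6 group means with p-values adjusted by Benjamini-Hochberg over all probes tested, 6 residual and 4.71 prior degrees of freedom, and code tested on simulated data. Same-numbered knockout and wild-type samples deviated together within each stage (correlation across probes 0.61, 0.247 and 0.161 from the earliest to the latest stage). The main fit and its p-values left this dependence out. Only the replicate block, tried as an alternative, treated same-numbered samples of a stage as a block. Precision is limited by the number of arrays.

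The members and all rules were chosen with earlier results of these data known. Members were named by a rule that took the 8 with the lowest mean early difference, the 4 with the highest difference at E17.5, and the 4 with the highest and the 4 with the lowest genotype-averaged change from E15.5 to E17.5, besides those nearest each limit, those that share bases with another probe, and those the text says were singled out. No member matched the RefSeq promoter sequences (GRCm38.p6) over 30 bases or a miRNA hairpin. Alternatives tried were Agilent's processed signals, median centring, Cy3 alone, the authors' values, other filters, array weights, a replicate block and each array left out.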

Additional observations from a re-analysis of the deposited data

How the results depend on the processing

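The knockout minus wild-type medians were below 0 under every alternative tried at all 3 stages. The rule chose the members on these same arrays for low values at E15.5 and E16.5, so the sign there is no test. From the earliest to the latest stage they were -1.15, -0.90 and -0.23 with Agilent's processed signals, -1.10, -0.94 and -0.21 in the authors' table (55 members), and -1.00, -0.87 and -0.18 for the 32 members above background on all 12 arrays. Median centring gave -0.72, -0.62 and -0.0086, and moved the median of all probes at E15.5 to -0.11, so that the members lay 0.60 below it. At E15.5, Cy3 alone gave -0.72 and no filter -0.71. With an array left out the medians ran from -0.93 to -0.65 (highest without wild-type replicate 1) at E15.5, from -0.73 to -0.67 at E16.5 and from -0.14 to -0.11 at E17.5. Of the rule itself, 22 members met the limits on re-normalized ratios. On the authors' values 13 probes met limits 0.05 stricter at each stage, and 125 met limits 0.05 looser. The limit on the mean of the stages was left as it was in both. From E15.5 to E17.5, members that fell numbered 2 with Agilent's signals, 3 in the authors' table and 0 with the filter on all 12 arrays, and from E16.5 to E17.5 the authors' table had 1. With an array left out, 43 to 45 rose and 1 fell from E15.5 to E17.5, 36 to 41 rose and 0 fell over the second step, and 28 to 31 rose and 5 to 9 fell over the first. With the replicate block 43, 37 and 29 rose. The shares of all probes called under these alternatives were not counted, so nothing is read from the counts of members. The replicate block left the genotype medians at -0.87, -0.73 and -0.13. It could not change them, since each block held 1 knockout and 1 wild-type array of a stage. The change of Z00000770-1 turned to -0.015 and -0.018 without E15.5 replicate 1 of knockout or wild type, and reached 0.13 without another array. It passed the test at 1.61 with Agilent's signals, 1.61 in the authors' table and 0.31 with Cy3 alone. That of Z00076463-1 turned to -0.16 under median centring, -0.0071 without E15.5 knockout replicate 2, -0.047 without E17.5 knockout replicate 2 and -0.015 without E17.5 wild-type replicate 1, and reached 0.11 without another array, and it passed at 1.09 with Agilent's signals, 1.09 in the authors' table and 0.20 with Cy3 alone. Z00032202-1 passed at -0.71 in the authors' table, and Z00045567-1 missed the threshold at 0.18 under median centring. The cause was not tested. Slide could not be a block, since each holds 1 stage, and the shorter match for naming probes was not run. Signal over background limits the 23 dimmer members.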
